A study of Mus musculus with 4 samples.

Results

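Fibroblast growth factor (FGF) receptors and genes that read out ERK signalling were followed in mouse AEC2, the type II epithelial cells that make surfactant in the lung alveolus. The set held the receptor genes Fgfr1, Fgfr2, Fgfr3 and Fgfr4, the transcription factor genes Etv4 and Etv5, the inhibitor genes Spry1, Spry2 and Spry4, and the phosphatase gene Dusp6. All probe sets annotated to a single symbol among these 10 genes were taken, which gave 26 of the 45101 probe sets and 10 of the 18193 genes named on the array. The 4 arrays were wild-type AEC2 from untreated lungs, Tlr4-/- AEC2 from untreated lungs, and AEC2 of each genotype sorted 4 days after bleomycin, which injures alveolar epithelium. Each array carried 1 pool of flow-sorted cells from 4 to 5 mice. With 1 array per group, variation within a group could not be measured. The sources used here did not give the Tlr4 allele or the strain, age and sex of the mice.

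FGF receptors are tyrosine kinases at the cell surface. On binding an FGF ligand they signal through RAS and the kinases RAF, MEK and ERK. ERK signalling switches on the ETS factors of the PEA3 group, to which Etv4 and Etv5 belong, and also Sprouty and Dusp genes, whose products restrain the same pathway. In the lung, FGF10 acting on the epithelial form of FGFR2 drives branching of the airways, and ETV5 is known as a factor that maintains AEC2.

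AGGAAG is the sequence by which the PEA3 group was first described, and CCGGAA is a common ETS core. They were searched on both strands in the 250 bases upstream of each RefSeq gene start in GRCm38.p6. The windows of 7 of the 10 genes were in the table used, 9 windows in all. AGGAAG was found at Fgfr2, Fgfr4 and Dusp6 and CCGGAA at Fgfr4, so 3 of 9 windows held a match, against 38.2% of 32851 windows of the same length. AGGAAG alone was in 29.5% of all windows and CCGGAA in 12% of them, and the matches of the 2 motifs at Fgfr4 did not overlap. A match is only the presence of these letters. The windows of Fgfr2, Etv5, Spry2 and Dusp6 are shown because these genes carry the main contrasts among the members, with matched letters in capitals and each window ending 1 base before the gene start (for Etv5, the first of its 2 starts in the table):
Fgfr2, chr7:130266809-130267058, minus strand: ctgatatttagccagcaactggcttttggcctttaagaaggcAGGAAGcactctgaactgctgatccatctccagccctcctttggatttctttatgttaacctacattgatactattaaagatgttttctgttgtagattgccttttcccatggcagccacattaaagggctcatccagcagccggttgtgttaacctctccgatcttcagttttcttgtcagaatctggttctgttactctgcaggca
Etv5, chr16:22439571-22439820, minus strand: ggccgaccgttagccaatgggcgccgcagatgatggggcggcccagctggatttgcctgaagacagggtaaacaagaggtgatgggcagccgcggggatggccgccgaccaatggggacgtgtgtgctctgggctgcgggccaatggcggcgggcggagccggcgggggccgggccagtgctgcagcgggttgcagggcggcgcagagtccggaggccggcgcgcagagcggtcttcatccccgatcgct
Spry2, chr14:105896820-105897069, minus strand: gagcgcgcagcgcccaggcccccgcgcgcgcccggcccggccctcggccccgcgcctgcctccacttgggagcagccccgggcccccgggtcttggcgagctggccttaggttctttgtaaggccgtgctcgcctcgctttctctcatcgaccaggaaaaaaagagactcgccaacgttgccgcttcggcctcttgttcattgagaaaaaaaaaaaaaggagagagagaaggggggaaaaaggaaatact
Dusp6, chr10:99262981-99263230, plus strand: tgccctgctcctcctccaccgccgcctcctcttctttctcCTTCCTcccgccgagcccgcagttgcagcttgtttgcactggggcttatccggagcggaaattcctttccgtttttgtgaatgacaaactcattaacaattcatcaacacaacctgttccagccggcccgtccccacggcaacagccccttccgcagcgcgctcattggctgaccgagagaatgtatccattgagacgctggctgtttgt
The match in Fgfr2 began 208 bases upstream of the start, and the match in Dusp6, read on the opposite strand, began 210 bases upstream.

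The sorted cells carried AEC2 markers at high signal. On every array Sftpc, the gene of surfactant protein C, lay between 14.07 and 14.12 (log2 signal). Of the 9 AEC2 markers measured, 0 were called for bleomycin by the model described below, and their differences after bleomycin ran from -0.08 to 0.06 in wild type and from -0.48 to 0.05 in Tlr4-/-. Tlr4 was read by 4 probe sets. Probe set 1418163_at gave 8.87 in wild type and 7.24 in Tlr4-/- when untreated, and 9.07 and 6.39 at day 4. Probe sets 1418162_at and 1442827_at had more signal in Tlr4-/-, with differences of 0.66 and 0.43 untreated and 0.41 and 0.49 at day 4, and 1430695_at stayed at or below 4.05. Where any of the 4 lies relative to the deleted part was not given, so neither the lower nor the higher probe sets check the genotype. On its brighter probe set Eif2s3y, a Y-linked gene, was higher at day 4 than untreated, by 1.86 in wild type and 1.92 in Tlr4-/-. Its other probe set was higher by 2.21 and 2.09. A difference in the sex of the pooled mice would thus go with bleomycin in both genotypes. Its part in the bleomycin differences below cannot be told apart and was not tested.

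The 26 probe sets split by brightness. A probe set passed the filter if its average signal on the 4 arrays was above 7.27, the median for the 34945 probe sets with 1 gene symbol. Of the members, 12 probe sets of 7 genes passed: 1 of 3 for Fgfr1, 2 of 3 for Fgfr2, 2 of 2 for Fgfr3, 3 of 3 for Etv5, 1 of 1 for Spry1, 2 of 2 for Spry2 and 1 of 1 for Dusp6. The 5 probe sets of Fgfr4 lay between 4.16 and 6.27, the 2 of Etv4 between 6.29 and 6.63, and the 4 of Spry4 between 4.70 and 7.35, so none of these 3 genes passed. Without detection calls, such low signals cannot be told apart from background. Probe sets differ in how well they bind, so signals were compared between arrays and not between probe sets.

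**Figure D1:**
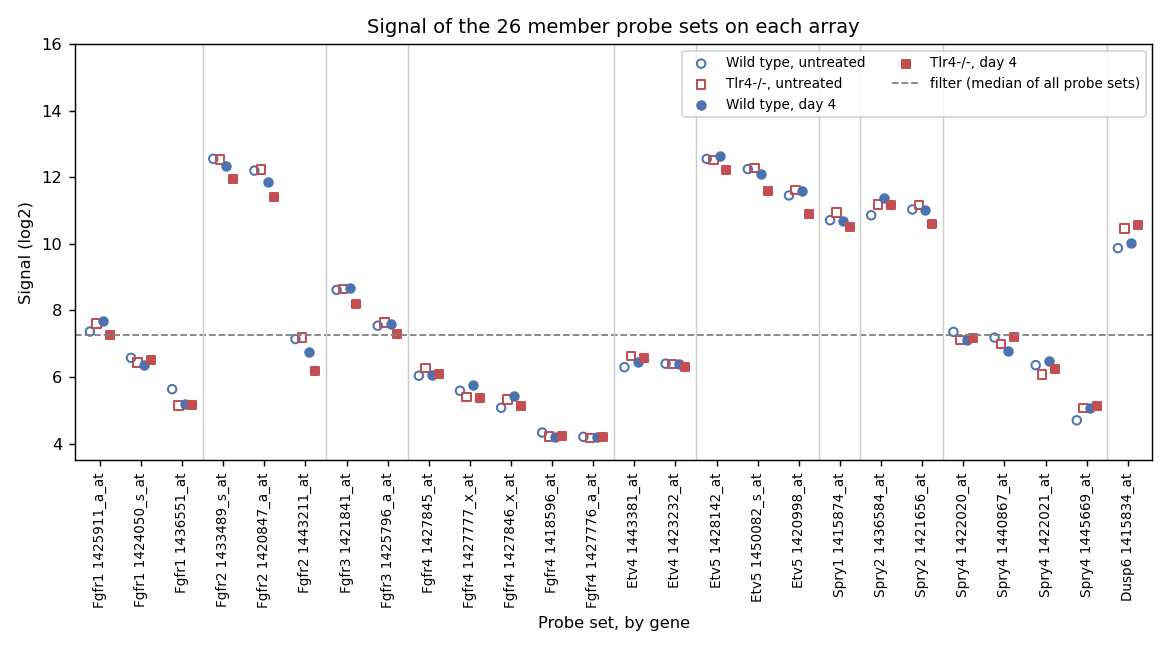
Signal (log2) of each of the 26 member probe sets on the 4 arrays, 1 point per array, grouped by gene; the dashed line is the filter at 7.27. The Tlr4-/- day 4 point lies below the other 3 in all probe sets of Fgfr2, Fgfr3 and Etv5, whereas Dusp6 separates by genotype.

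After bleomycin most member probe sets past the filter were lower in Tlr4-/- cells. There Fgfr2, Fgfr3, Etv5, Spry1 and a probe set each of Fgfr1 and Spry2 were lower at day 4 than untreated, and in wild type the same probe sets differed less or not in that direction. Of the 12 members past the filter, 11 were below 0 in Tlr4-/-, against 49.9% of all probe sets past the filter, and 5 were below 0 in wild type, against 40.8%. The median difference of the 12 was -0.45 in Tlr4-/- and 0.06 in wild type, beside 0.00 and 0.08 over all probe sets past the filter. The spread of a difference between 2 arrays, taken from the model over all probe sets, was 0.27. It does not rest on replicates, and its use as a threshold was chosen after seeing the data. In Tlr4-/-, 10 of 12 members were lower by more than the spread (23.9% of all probe sets past the filter) and 0 were higher (24.8%). In wild type 1 of 12 was lower (15.8%) and 2 of 12 were higher (29.9%). Probe sets of 1 gene share their target and are not independent, and every Tlr4-/- difference rests on 2 single arrays.

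At a threshold of 2-fold, 1 of the 26 probe sets was lower in Tlr4-/- after bleomycin (1.41% of all probe sets with 1 symbol) and 0 were higher (2.38%). In wild type 0 were lower (0.738%) and 0 higher (2.14%). A count of 1 probe set, itself below the filter, sets the members apart from the array in no direction. The differences of the members past the filter were all under 2-fold.

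**Figure D2:**
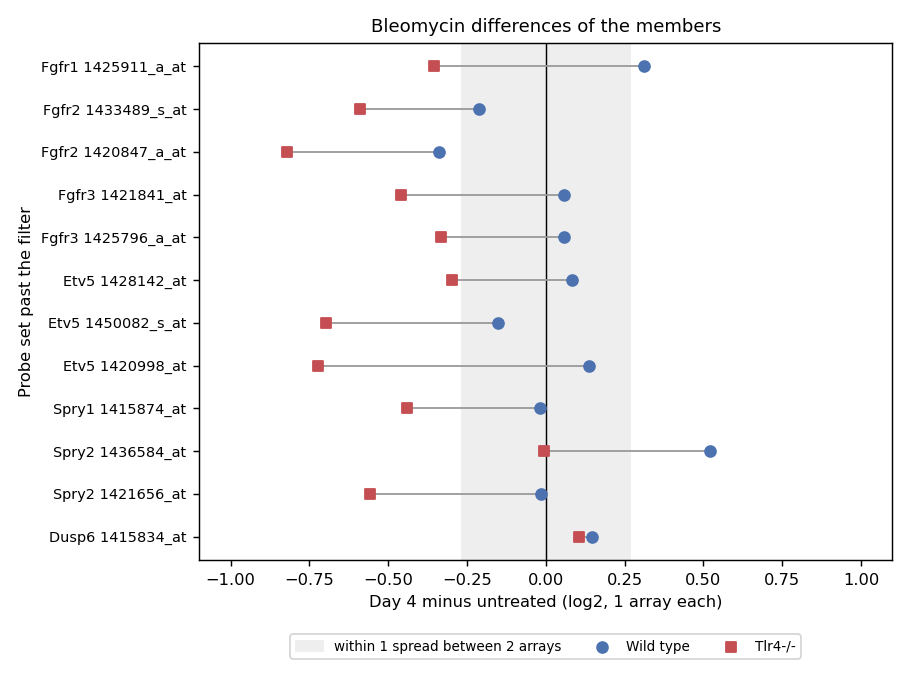
Differences between day 4 and untreated arrays (log2) for the 12 member probe sets past the filter, circles for wild type and squares for Tlr4-/-; the grey band spans 1 spread between 2 arrays, 0.27 each way. In 12 of 12 rows the Tlr4-/- square lies to the left of the wild-type circle, by as little as 0.04 for Dusp6; after quantile normalization this held in 11 of 12.

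Among the receptors, Fgfr2, the main FGF receptor of the lung epithelium, was lower at day 4 in both genotypes. Its lead probe set, 1433489_s_at, the one with the highest mean, read 12.55 in wild type and 12.53 in Tlr4-/- untreated, then 12.34 and 11.94 at day 4. Probe set 1420847_a_at read 12.20, 12.23, 11.86 and 11.40 in the same order of arrays. Probe set 1443211_at, below the filter, read 7.14, 7.18, 6.75 and 6.18. Both day 4 arrays lay below both untreated arrays on all 3 probe sets, and the Tlr4-/- day 4 array was the lowest each time. The differences in Tlr4-/- were -0.59, -0.82 and -1.0, the last being the only member difference at 2-fold. Those in wild type were -0.21, -0.34 and -0.39, of which that of the lead probe set lay within the spread of 0.27. The arrays of the day 4 and untreated groups did not overlap in that direction for 5 of the 12 members past the filter (21.7% of all), which were these 2 Fgfr2 probe sets, Etv5 1450082_s_at, Spry1 1415874_at and Spry2 1421656_at. In the other direction, with both day 4 arrays above both untreated arrays, there were 0 of 12 (29%).

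Fgfr3, a receptor of the same family, had its lowest signal on the Tlr4-/- day 4 array. Probe set 1421841_at read 8.61 and 8.64 untreated and 8.67 in wild type at day 4, but 8.18 in Tlr4-/- at day 4. Probe set 1425796_a_at read 7.54, 7.63, 7.60 and 7.30. The other 3 arrays lay within 0.06 of each other on the first probe set and within 0.09 on the second.

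Fgfr1, which is prominent in mesenchymal cells, was near the filter and its probe sets disagreed. Its lead, 1425911_a_at, read 7.36 and 7.60 untreated and 7.67 and 7.25 at day 4 in wild type and Tlr4-/-, so it was higher by 0.31 in wild type and lower by 0.36 in Tlr4-/-. Both other probe sets were below the filter and went the other way in each genotype, with wild-type differences of -0.20 and -0.45 and Tlr4-/- differences of 0.09 and 0.02. No direction can be given for Fgfr1 as a gene. Fgfr4 differed by -0.20 to 0.03 in Tlr4-/- and by -0.13 to 0.35 in wild type on its 5 dim probe sets, of which the _x_at ones may bind related transcripts too.

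Etv5, the ETS factor read strongly in these cells, was lower on the Tlr4-/- day 4 array on all 3 probe sets. Probe set 1428142_at read 12.55 and 12.51 untreated, 12.63 in wild type at day 4 and 12.22 in Tlr4-/- at day 4. Probe set 1450082_s_at read 12.24, 12.28, 12.09 and 11.58, and 1420998_at read 11.45, 11.62, 11.59 and 10.90. The last 2 were designed from the same transcript record. The untreated arrays and the wild-type day 4 array stayed close together, and only the Tlr4-/- day 4 array stood below them on each probe set. The Tlr4-/- differences were -0.30, -0.70 and -0.72 and the wild-type differences 0.08, -0.15 and 0.14. The related gene Etv4 was too dim to read, with differences from -0.09 to 0.15 across both genotypes.

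Among the inhibitors, Spry1, which acts upstream of ERK in receptor tyrosine kinase signalling, read 10.71 and 10.94 untreated and 10.69 and 10.50 at day 4 in wild type and Tlr4-/-. It was lower by 0.44 in Tlr4-/- and by 0.02 in wild type. Spry2, an inhibitor of the same family, was read by 2 probe sets that differed. Probe set 1421656_at read 11.03, 11.16, 11.01 and 10.61 and was lower by 0.56 in Tlr4-/- and by 0.01 in wild type. Its lead, 1436584_at, read 10.86, 11.18, 11.38 and 11.17, a difference of 0.52 in wild type and of -0.01 in Tlr4-/-. On both, the Tlr4-/- difference lay below the wild-type difference by about the same amount, 0.54 and 0.53. Spry4 was below the filter on its 4 probe sets, with differences of -0.39 to 0.36 in wild type and 0.05 to 0.20 in Tlr4-/-.

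Dusp6 encodes a phosphatase that removes the activating phosphates from ERK. It was the only member past the filter not lower in Tlr4-/- than in wild type at day 4. It read 9.87 in wild type and 10.46 in Tlr4-/- untreated, and 10.02 and 10.57 at day 4. Bleomycin differences were 0.15 and 0.11. Both Tlr4-/- arrays lay above both wild-type arrays, by 0.59 untreated and 0.55 at day 4. Such a separation upward by genotype was seen for 1 of the 12 members past the filter, and for 17% of all such probe sets. The opposite separation, both Tlr4-/- arrays below both wild-type arrays, was seen for 1 of 12 (10.4%), Etv5 1428142_at.

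**Figure D3:**
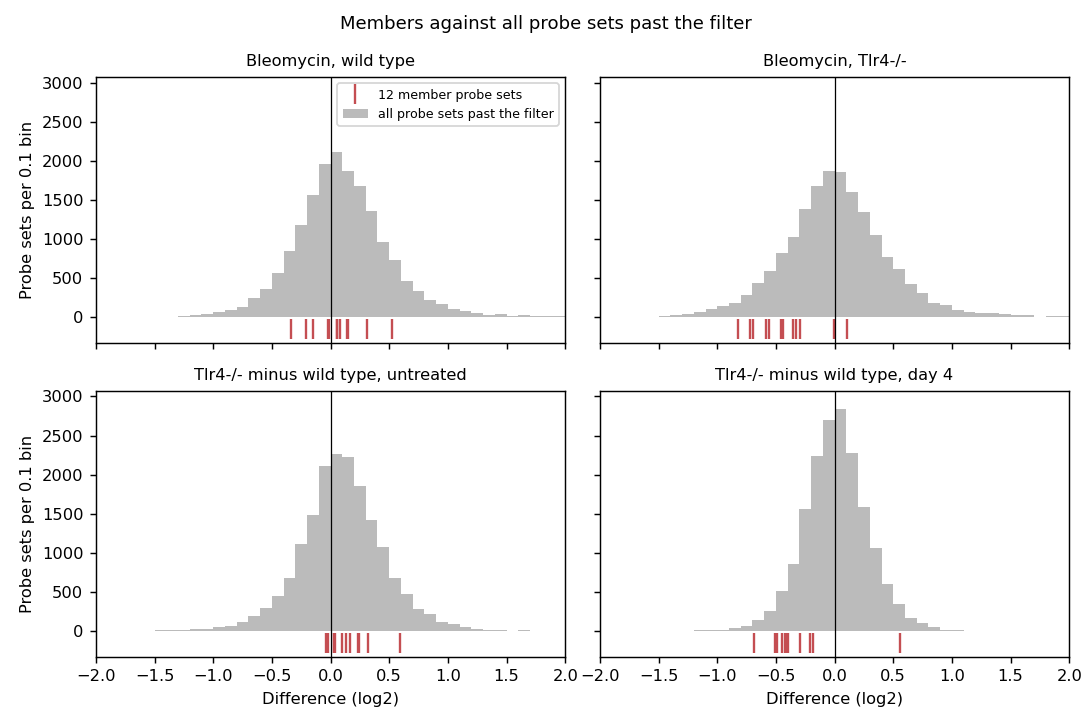
Histograms of the differences (log2, bins of 0.1) over the 17472 probe sets past the filter, with the 12 member probe sets as red ticks under each. In the Tlr4-/- bleomycin and day 4 genotype panels most ticks lie left of 0, with medians of -0.45 and -0.41, and in the other panels they lie around the bulk of the histogram; the panels on the right share the Tlr4-/- day 4 array.

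The genotypes were close for the members when untreated and apart at day 4. Untreated, the 12 members past the filter had a median Tlr4-/- minus wild-type difference of 0.11, beside 0.09 over all probe sets past the filter, and 2 of 12 were below 0 (38.1% of all), or 0 with centred arrays and 3 after quantile normalization. At day 4 the median was -0.41, beside 0.01, and 11 of 12 were below 0 (48.1%). By more than the spread, 9 of 12 were lower (13.3%) and 1 of 12, Dusp6, was higher (16.2%) at day 4. Untreated, 0 of 12 were lower (13%) and 2 of 12, Dusp6 and Spry2 1436584_at, were higher (29%). None of the 26 reached 2-fold in either comparison, where the shares over all probe sets were 1.32% higher and 0.787% lower untreated, and 0.249% and 0.126% at day 4. Among the members that were lower in Tlr4-/- at day 4, Etv5 1420998_at differed by -0.69, Etv5 1450082_s_at by -0.51 and Fgfr3 1421841_at by -0.49, and Dusp6 was higher by 0.55. For Fgfr2 the differences were -0.02, 0.03 and 0.05 untreated and -0.40, -0.45 and -0.57 at day 4. The day 4 genotype difference and the bleomycin difference in Tlr4-/- both contain the Tlr4-/- day 4 array and are not separate evidence. That array was the lowest of the 4 for 10 of the 12 members, and for 26.2% of all probe sets past the filter.

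**Figure D4:**
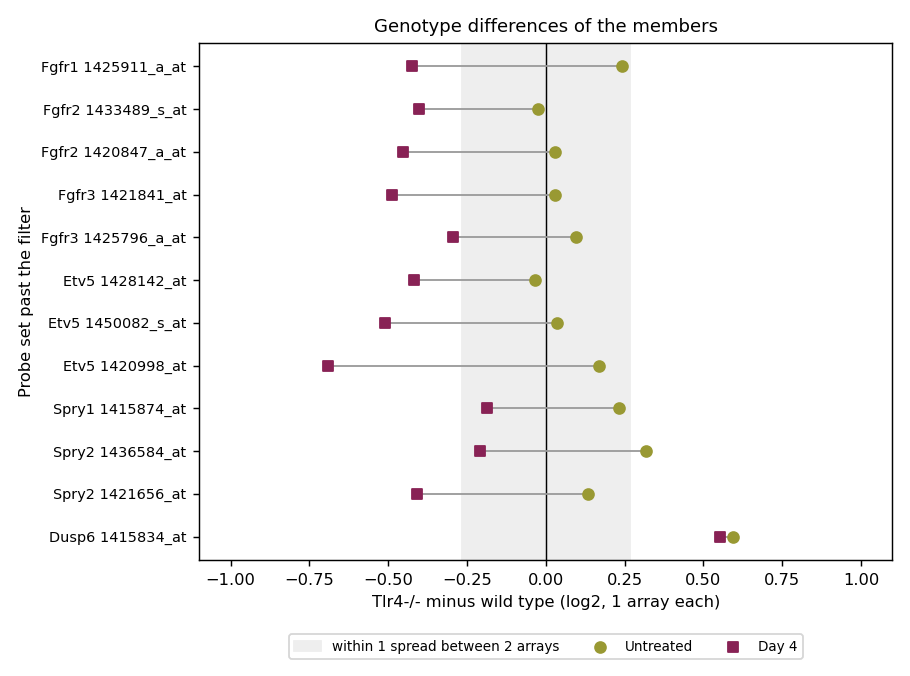
Tlr4-/- minus wild-type differences (log2) for the 12 member probe sets past the filter, circles for untreated and squares for day 4 arrays; the grey band spans 0.27 each way. Squares of all genes but Dusp6 lie left of 0, and Dusp6 lies near 0.6 in both.

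The difference between the genotypes' bleomycin differences, Tlr4-/- minus wild type, was below 0 for 12 of 12 members past the filter (59.6% of all), and for 11 of 12 after quantile normalization. It ran from -0.86 for Etv5 1420998_at to -0.04 for Dusp6, with a median of -0.50 beside -0.09 over all probe sets past the filter. By more than its spread of 0.38, 10 of 12 were lower (22.1%) and 0 were higher (12.4%). That spread is itself derived from these same differences over all probe sets past the filter, and not from replicates. None of the 26 was at 2-fold (1.65% of all higher, 1.83% lower). With 1 array per group this difference could not be tested.

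Over all 26 probe sets, dim ones included, the members stood closer to the array as a whole. Below 0 were 11 of 26 for bleomycin in wild type (48.9% of all probe sets with 1 symbol), 17 in Tlr4-/- (53.8%), 11 for genotype untreated (46.1%), 18 at day 4 (51.8%) and 19 for the difference between the genotypes' bleomycin differences (54.7%). Both day 4 arrays lay below both untreated arrays for 6 of 26 (24%) and above them for 0 (22.5%). Both Tlr4-/- arrays lay below both wild-type arrays for 6 of 26 (14.9%) and above them for 4 (14.6%). The Tlr4-/- day 4 array was the lowest for 13 of 26 (30.2%).

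In the model over both genotypes, fitted with limma to 17472 probe sets past the filter with genotype as a second factor, 0 of the 12 members rose or fell after bleomycin at an adjusted p under 0.05. Over all probe sets 3.81% rose and 1.34% fell. On simulated data this fit, with 1 residual degree of freedom, made more false calls than its threshold allows, so adjusted p-values here and in the lists below can be too small. At an unadjusted p under 0.05 there was 1 member (21.7% of all), Fgfr2 1420847_a_at, with an average difference of -0.58 ± 0.19 (SE, lower in 2 of 2 genotypes, limma adjusted p = 0.117). Fgfr2 1433489_s_at averaged -0.40 ± 0.19 (adjusted p = 0.251) and Etv5 1450082_s_at -0.42 ± 0.20 (limma adjusted p = 0.248). When limma's prior spread was allowed to depend on signal, these 3 probe sets fell, with limma adjusted p of 0.00352, 0.0184 and 0.0293 (3.24% of all fell), and 0 members rose (6.41% of all rose). The calls for these probe sets therefore depend on how the spread is modelled. For Etv5 the call depends also on the probe set. In the same fit 1428142_at and 1420998_at were not called (limma adjusted p = 0.597 and 0.279). Because the model has no interaction term, unequal bleomycin differences in the genotypes enter its residual error.

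For genotype across both treatments limma called 0 of 12 members, 0% of all probe sets being called in either direction. At an unadjusted p under 0.05 there was 1 member (7.73% of all), Dusp6, with an average of 0.57 ± 0.18 (SE, higher in 2 of 2 treatments, limma adjusted p = 0.531).

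Markers of other cells moved with bleomycin in the same pools. Of 11 leukocyte and macrophage markers past the filter 10 rose, against 3.81% of all probe sets past the filter. Their medians were 1.42 in wild type and 1.84 in Tlr4-/-. Their summed signal over 12 genes went from 11.98 to 13.36 (log2) in wild type and from 11.97 to 13.66 in Tlr4-/-. Of fibroblast markers 4 of 5 rose, and their summed signal over 8 genes went from 10.81 to 12.07 and from 10.19 to 11.73. Mesothelial markers rose in 3 of 3, with medians of 0.96 in wild type and 1.90 in Tlr4-/-, and their median for Tlr4-/- against wild type was -1.58 untreated and -0.10 at day 4. Their summed signal over 6 genes went from 10.10 to 10.99 in wild type and from 8.82 to 10.75 in Tlr4-/-. The fibroblast medians were 0.93 in wild type and 1.54 in Tlr4-/- after bleomycin, and -0.70 for Tlr4-/- against wild type when untreated. AEC1 markers rose in 4 of 7. In club cell markers 0 of 6 were called, but their medians were -0.45 in wild type and 0.90 in Tlr4-/- after bleomycin, and -1.56 for Tlr4-/- against wild type when untreated. In the endothelial list 1 of 8 and in the ciliated list 4 of 6 markers passed the filter, and 0 were called. In pooled cells, fewer cells of a type and less RNA per cell cannot be told apart. The part of these other cells in the lower Fgfr2, Fgfr3, Etv5 and Spry signals was not tested. The summed signal of the 9 AEC2 markers lay between 16.77 and 16.85 on the 4 arrays, lowest on the Tlr4-/- day 4 array. Sftpc, Lyz2, Sftpb and Sftpa1 averaged 14.08, 13.98, 13.96 and 13.96, near the highest signal of any probe set, 14.6. Differences so near the top of the scale may be understated, so the steady sum does not show that AEC2 content was steady. The Tlr4-/- bleomycin differences of the 9 reached down to -0.48, for the less bright Abca3, with a mean of 12.73.

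Other genes of the pathway were taken from 6 lists of 63 genes, of which 54 were named on the array by a single symbol and 42 passed the filter. Of these 42, 5 rose, 2 fell and 0 differed by genotype (limma, adjusted p under 0.05). Over all probe sets past the filter 3.81% rose, 1.34% fell and 0% differed by genotype. Among ligands 1 of 7, Fgf1, passed, at 9.97 and 10.31 untreated and 10.08 and 9.69 at day 4 in wild type and Tlr4-/-. The other 6, among them Fgf7 and Fgf10, made in the mesenchyme, lay between 4.44 and 6.72. Of 7 co-receptors and heparan sulfate enzymes past the filter 0 were called, and their bleomycin differences ran from -0.04 to 0.48 in wild type and from -0.85 to 0.54 in Tlr4-/-. Of 8 adaptors 0 were called, with Sos1, an activator of RAS, at -0.49 ± 0.19, the phosphatase Ptpn11 at 0.35 ± 0.19 and Shc1 at -0.22 ± 0.18 (SE, average over 2 genotypes). In the core from RAS to ERK 0 of 6 were called, with the ERK-activated kinase Rps6ka3 at 0.64 ± 0.18, Nras at 0.48 ± 0.18 and Map2k2 at 0.39 ± 0.18.

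Feedback inhibitors and ERK-responsive genes held the 7 calls, which went both ways. Of 10 other feedback inhibitors, Dusp7 rose by 0.73 ± 0.18 (limma adjusted p = 0.0465) and Dusp4 fell by 0.77 ± 0.18 (adjusted p = 0.0396), both being phosphatases of ERK. Flrt3, a membrane protein that binds FGF receptors, averaged 0.83 ± 0.21 and did not pass (limma adjusted p = 0.0511). Of 10 other ERK-responsive genes 4 rose and 1 fell (3.81% and 1.34% of all probe sets past the filter). Ccnd1, the cyclin of entry into the cell cycle, rose by 0.94 ± 0.20, Myc by 1.0 ± 0.23, and Fosl1 and Epha4, named after their values were seen, by 0.72 and 0.74. Egr1, an immediate early gene, fell by 0.85 ± 0.18. Myc read 7.41 and 8.58 untreated and 8.84 and 9.14 at day 4 in wild type and Tlr4-/-, so its day 4 arrays lay above both untreated arrays. Ccnd1 read 10.89, 11.39, 12.08 and 12.08, and Egr1 13.19, 12.87, 12.43 and 11.92. The lists' medians were 0.64 in wild type and 0.45 in Tlr4-/- for ERK-responsive genes. They were -0.03 and -0.37 for the feedback inhibitor list, Flrt3 included. The medians over all probe sets past the filter were 0.08 and 0.00. The medians of the 12 member probe sets were 0.06 and -0.45. The lists count 1 lead probe set per gene and the members several for some genes, so these medians are not on the same measure.

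**Figure D5:**
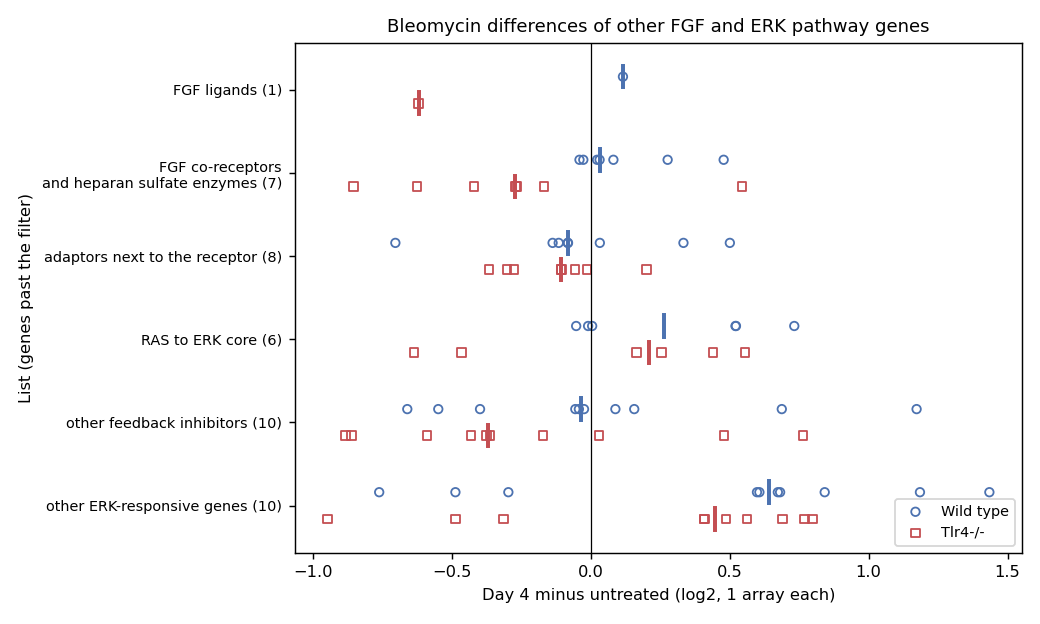
Bleomycin differences (log2, day 4 minus untreated) of the genes past the filter in each pathway list, circles for wild type and squares for Tlr4-/-, with vertical bars at the list medians. The ERK-responsive genes lie mostly right of 0 in both genotypes, with medians of 0.64 and 0.45, while co-receptors and feedback inhibitors lie further left in Tlr4-/-, with medians of -0.27 and -0.37.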

How the data were processed

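Per the labels' protocols, Trizol RNA of sorted AEC2 went through cDNA amplification and biotin labelling, and an Affymetrix 3' array was read. The values deposited by the authors ran from 3.07 to 14.6, with array medians of 6.93 to 6.98, and were read as log2 signals. Software and normalization: not given in the sources used here. Of 45101 probe sets, 34945 that were not array controls carried 1 symbol in the platform annotation, 932 several and 9160 none. RefSeq gene identifiers matched 34741 of the former, and 204 kept their annotated name. Members were named as annotated.

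Differences between 2 arrays were called at 2-fold with no test. Bleomycin and genotype effects were fitted with limma 3.58.1 in R 4.3.3 (additive, 1 residual degree of freedom, prior of 9.13), adjusted by Benjamini-Hochberg over 17472 probe sets. The spread of 0.27 comes from that prior, which rests on unequal responses of the genotypes and not on replicates. Tested on simulated data of this design, the fit recovered the size of planted changes, but more than the nominal share of its calls were false, since a prior estimated from 1 residual degree of freedom is imprecise; with the true prior the share was lower. Its adjusted p-values can therefore be too small. Up to 3 genes per pathway list were named, by the size of the average bleomycin difference. Members, lists and tests were chosen with earlier results of these data known. The number of arrays limits the precision. Alternatives were centring, quantile normalization, averaging or choosing probe sets per gene, no filter, a trend in the prior, and leaving out each array.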

Additional observations from a re-analysis of the deposited data

Results flagged for a closer look

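For 8 of the 10 genes, the 2 differences of the lead probe set being compared had opposite signs, though several lay close to 0. With 1 array per group each direction is that of a single difference, and the difference between them was not tested. For both the bleomycin difference (Tlr4-/- minus wild type) and the genotype difference (day 4 minus untreated), which are the same number, this held for Fgfr1 at -0.67, Fgfr3 at -0.52, Spry2 at -0.53 and Spry4 at 0.31. For the bleomycin difference it held also for Fgfr4 at -0.20, Etv4 at -0.22 and Etv5 at -0.38, and for the genotype difference also for Spry1 at -0.42. Fgfr1 after bleomycin was the one case in which both differences were larger than the spread of 0.27. For Spry2 the Tlr4-/- bleomycin difference was -0.0053, in effect 0. For Fgfr3 the differences of 0.06 in wild type and 0.03 untreated became -0.02 and -0.07 after quantile normalization, so its opposite signs were lost in both comparisons. The values of Fgfr4, Etv4 and Spry4 come from probe sets below the filter and lie within the spread of 0.38 for such a difference. The other probe sets of Fgfr1 gave 0.29 and 0.48, against the sign of its lead.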

How the results depend on the processing

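Under centring, quantile normalization and the main values alike, 11 of 12 members past the filter were below 0 for the bleomycin difference in Tlr4-/- and for the day 4 genotype difference. The difference of responses was below 0 in 12, 12 and 11 of 12 for the main values, centring and quantile normalization. In wild type 4 to 6, and untreated 0 to 3, of the 12 were below 0, so single signs near 0 are not firm there. The 1 member probe set at 2-fold in Tlr4-/- was not at 2-fold after quantile normalization (0), nor were member genes with averaged probe sets (0) or the probe set of highest mean (0). With the spread in place of 2-fold, chosen after seeing the data, counts of members in either direction were 3 for bleomycin in wild type, 10 in Tlr4-/-, 2 and 10 for genotype untreated and at day 4, and 10 for the difference of responses. With a trend in limma's prior, 3 members were called for bleomycin instead of 0, and over all probe sets 1686 for bleomycin and 11 for genotype. Over all probe sets 900 were called for bleomycin in the main fit, 450 after quantile normalization, 340 with 1 probe set per gene and 314 without the filter. Leaving out 1 array, in limma fits of bleomycin alone that let the lone array vary like the other group, gave 0 to 1479: 0 without the wild-type day 4 or the Tlr4-/- day 4 array, and 1479 without the Tlr4-/- untreated array. In these fits 0 members were called. Averaging all probe sets of a gene moved 8 of the single-gene differences, 5 of them of Fgfr1, by more than the spread, and the cause of the changes was not tested. No paired analysis was possible because each group had 1 array and the labels gave no replicate numbers.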

Other observations

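Further genes of the ligand and co-receptor lists, named after their values were seen, stood out. Fgfrl1, an FGF-binding receptor that lacks the kinase part, read 8.82 and 9.02 untreated and 8.80 and 8.17 at day 4 in wild type and Tlr4-/-. Its bleomycin difference was -0.03 in wild type and -0.85 in Tlr4-/-, an average that did not pass (limma adjusted p = 0.283). Fgf18, a ligand below the filter, went the other way, at 6.72 and 5.16 untreated and 5.87 and 6.58 at day 4. Its differences were -0.85 in wild type and 1.42 in Tlr4-/-, at signals that cannot be told apart from background.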
